A study of Mus musculus with 8 samples.

Results

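The Rab family was examined in RAW264.7 cells, a mouse macrophage line of the strain Balb/c, 24 h after transfection with small interfering RNA (siRNA). Members were all gene names of the deposited array table that consist of Rab, a number and optional lower-case letters and digits, which gave 63 of 18136 names. The probe that stands for each gene was selected on its mean non-normalized intensity over the 8 arrays, the highest being taken, so that intensity is described here and not tested. The name pattern took in more than the label Rab GTPases covers. Of the 63 names, 55 are Rab GTPases and 8 are proteins that bind or regulate them (Rab11fip2, Rab11fip3, Rab11fip4, Rab11fip5, Rab3gap1, Rab3gap2, Rab3il1 and Rab3ip), and the 8 were kept apart.

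Rab proteins are small GTPases that mark the membranes of the cell and direct vesicle budding, transport, tethering and fusion. Each switches between a GTP-bound form, which recruits effector proteins, and a GDP-bound form. Exchange factors turn a Rab on, GTPase-activating proteins turn it off, and prenyl groups anchor it in the membrane. In macrophages Rabs are known for their part in phagosome maturation, receptor recycling and cytokine secretion. By the compartment with which each is usually associated, 16 GTPases were classed as endosomal (early and recycling endosomes and phagosomes), 22 as secretory (endoplasmic reticulum, Golgi and exocytosis), 11 as lysosomal (late endosomes, lysosomes, related organelles and autophagosomes) and 6 as other.

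One group of 4 arrays came from cells that received the Ypel5-specific siRNA, a single product (SASI_Mm01_00066332), and the other group of 4 from cells that received the scrambled MISSION siRNA SIC001. HiPerfect was the transfection reagent in both, and no group was left untransfected in the samples used here. Nothing in the labels says that the 4 replicates of a group were separate cultures, so the p-values rest on a spread between samples that may be no more than technical. By its title the study concerns restraint by Ypel5 of interferon-beta induction through TBK1 and IKBKE, and the contrast asks which transcripts differ once the siRNA has been given.

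Between 11249 and 11612 of 25697 probes were detected on an array, that is, had a detection p-value under 0.05. The median non-normalized intensity was 209.5 ± 14.6 in the Ypel5 siRNA group and 189.2 ± 6.26 in the scrambled group (SD, 4 arrays per group; p = 0.0857 in a two-sided exact permutation test, which cannot go below 0.0286), and its part in the results was not tested. The single Ypel5 probe was detected on 0 of the 8 arrays, so the arrays do not show whether the target was lowered, and directions below are those of the arrays labelled Ypel5 siRNA. Of 9 macrophage marker genes on the array 8 were detected on all 8 arrays, the exception being Itgam, which was detected on 1. Of 13 markers of T cells, B cells, fibroblasts, epithelium and endothelium, 0 were detected on all 8 arrays. Cdh1, a marker of epithelium, was detected on 2 Ypel5 siRNA and 3 scrambled arrays, enough to be tested (log2 -0.07, limma adjusted p = 0.925). The number of arrays limits the precision of every value.

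Most Rab genes were measurable in these cells. Of the 63 names, 43 were detected on all 8 arrays, 4 on 5 to 7, 3 on 1 to 3 and 13 on 0. Names detected on at least 4 arrays were tested, which left 47 (74.6% of the names, against 45.5% of all gene names). The 13 that were not detected were the brain and secretory cell Rabs Rab3b, Rab3c and Rab27b, the Golgi Rabs Rab2b, Rab6b and Rab30, the endosomal Rab15, the epithelial Rab25, the melanosomal Rab38, and Rab9b, Rab33a, Rab36 and Rab40b. Just below the limit were Rab17 (2 arrays), Rab19 and Rab20 (3 arrays each), and just above it Rab11fip2, Rab13 and Rab43 (5 arrays each) and Rab5b (6 arrays).

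Across the family, 3 genes were higher after the Ypel5 siRNA, 0 were lower and 44 did not pass. The 3 were Rab32 and Rab39 of the lysosomal class and Rab3d of the secretory class, each by 1.20-fold to 1.29-fold. The share called was 6.38% of the 47 tested, against 4.83% of the 8257 genes tested (limma, Benjamini-Hochberg adjusted p under 0.05), which is near the background. Among all genes 2.88% were called higher and 1.95% lower. At an unadjusted limma p under 0.05, 8 members were higher and 1 was lower, against 902 higher and 871 lower among all genes. In either direction these were 9 of 47 members and 1773 of 8257 genes. The 4 arrays of one group lay wholly above or below those of the other for 8 of the 47 members (17.02%), against 15.2% of all genes. The median log2 change was 0.04 over the 47 members and 0.00102 over all genes, and the changes of all genes ran from log2 -0.28 to 0.32 between their 5th and 95th percentiles.

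**Figure D1:**
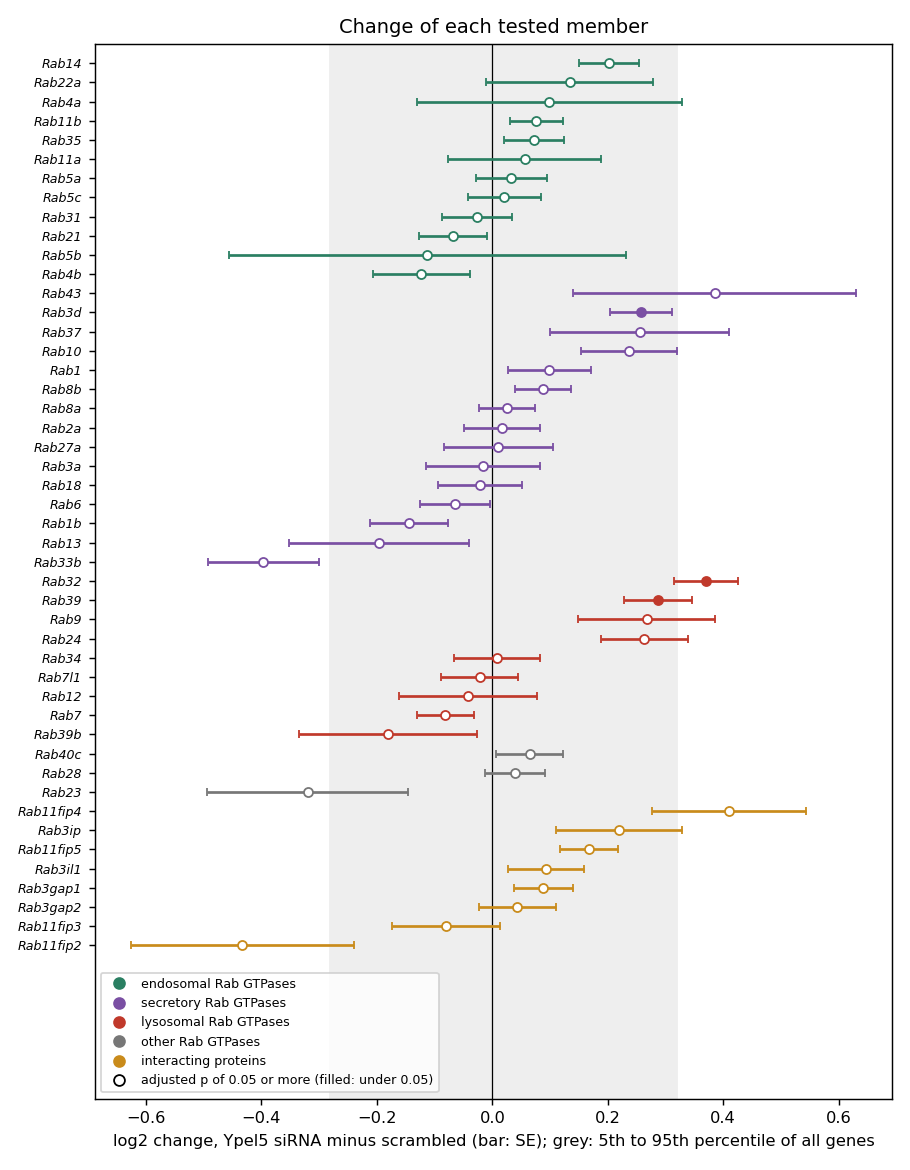
Log2 change of each of the 47 tested members, Ypel5 siRNA minus scrambled (horizontal axis; bars are standard errors from limma, 4 arrays per group), ordered within each class. Filled points mark Rab32, Rab39 and Rab3d, the 3 members with an adjusted p under 0.05, and the grey band spans the 5th to the 95th percentile of all 8257 genes tested, log2 -0.28 to 0.32.

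Of the 9 lysosomal Rabs tested, Rab32 and Rab39 rose, 0 fell and 7 did not pass, beside 4.83% called among all genes. Rab32 passed in 17 of 19 alternatives and Rab39 in 6, so 1 of the 2 calls was lost in most of them. The class had a median log2 change of 0.01 and 5 of 9 members above 0, against 50.3% of all genes. The median size of change, whatever its sign, was log2 0.18 over this class, 0.074 over the endosomal class, 0.098 over the secretory class and 0.097 over all genes. The lysosomal value is that of 1 dim gene, Rab39b (log2 -0.18, SE 0.15, limma adjusted p = 0.564). These class values were not tested against each other.

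Rab32 directs cargo to lysosome-related organelles and, in macrophages, restricts some intracellular bacteria. Its non-normalized intensities were 9127, 7392, 7047 and 7437 on the Ypel5 siRNA arrays of replicates 1 to 4, against 5413, 5686, 4889 and 5758 on the scrambled arrays. The normalized log2 intensities were 12.88, 12.80, 12.87 and 12.72 after Ypel5 siRNA and 12.40, 12.47, 12.40 and 12.52 after scrambled siRNA. All Ypel5 siRNA arrays lay above all scrambled arrays before and after normalization. The rise was 1.29-fold (log2 0.37, SE 0.055, 95% interval 0.24 to 0.50, limma adjusted p = 0.0102), and Rab32 ranked 96 of 8257 genes by p. It passed when any 1 of the 8 arrays was left out (adjusted p between 0.0148 and 0.0361). Without both arrays of replicate 1 the change was log2 0.33 and the adjusted p was 0.0848. Rab38, the closest relative of Rab32, was detected on 0 arrays.

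Rab39, known in human cells as RAB39A, takes part in the acidification of phagosomes. It read 8.15, 7.95, 7.97 and 8.04 on the Ypel5 siRNA arrays and 7.82, 7.72, 7.71 and 7.71 on the scrambled arrays (normalized log2 intensity). The groups did not overlap, and scrambled replicate 1 was the highest of its group by a wide gap. The rise was 1.22-fold (log2 0.29, SE 0.058, limma adjusted p = 0.0313). The call held when scrambled replicate 1 was left out (adjusted p = 0.0474) and was lost when any other array was, with adjusted p of up to 0.0809.

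Rab24, a Rab of autophagosome clearance, did not pass at log2 0.26 (SE 0.076, limma adjusted p = 0.0896). Its brightest probe read 10.85, 10.94, 11.04 and 10.70 after Ypel5 siRNA and 10.67, 10.55, 10.60 and 10.66 after scrambled siRNA, without overlap. Its other 2 detected probes changed by log2 0.26 and 0.18, so all 3 probes had 1 sign. The gene passed when Ypel5 siRNA replicate 4, the lowest of its group, was left out (log2 0.32, adjusted p = 0.0442).

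Rab7, the Rab of fusion between late endosomes and lysosomes, did not pass. It read 12.36, 12.31, 12.22 and 12.25 after Ypel5 siRNA and 12.40, 12.32, 12.40 and 12.35 after scrambled siRNA, and the groups overlapped. The change of log2 -0.08 (SE 0.049, limma adjusted p = 0.399) had a 95% interval of -0.19 to 0.03, and its 3 detected probes all lay below 0, between log2 -0.24 and -0.077. Rab9, which returns receptors from late endosomes to the Golgi, was at log2 0.27 (SE 0.12, adjusted p = 0.237), with overlapping groups. The others did not pass and lay between log2 -0.18 and 0.01: Rab39b, a Rab of neurons, at -0.18, Rab12, which sends transferrin receptor to degradation, at -0.04, Rab7l1, an older name of Rab29 and a partner of the kinase LRRK2, at -0.02, and Rab34, which positions lysosomes, at 0.01.

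**Figure D2:**
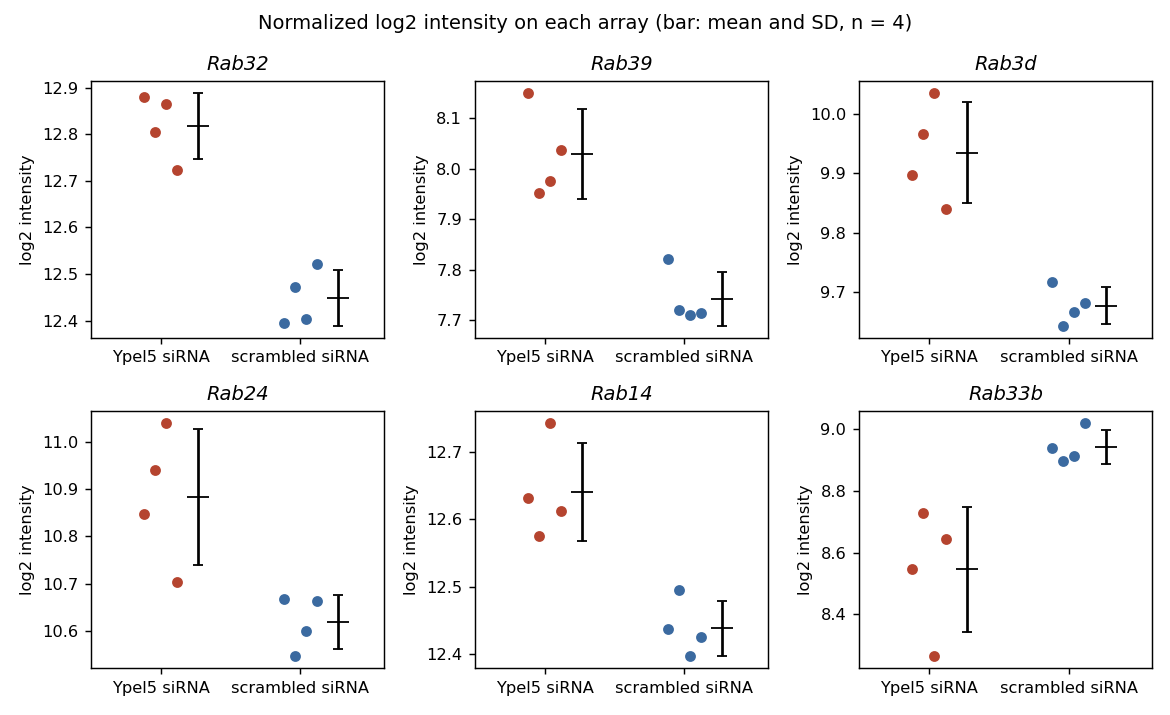
Normalized log2 intensity (vertical axes, different for each gene) on each of the 4 Ypel5 siRNA and 4 scrambled arrays, with the mean and SD beside the points. The arrays of the groups do not overlap for any of these 6 genes, and Rab33b is the 1 that is lower after Ypel5 siRNA.

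The promoter windows of the 3 called genes and of Rab24 are shown to place their starts in sequence context. Each runs from 250 bases before to 50 bases after the gene start, 5′ to 3′ on the gene's strand, which is the minus strand for all 4, as RefSeq gives it in GRCm38.p6. They lie at chr10:10558158-10558457 (Rab32), chr9:53706183-53706482 (Rab39), chr9:21918134-21918433 (Rab3d) and chr13:55321931-55322230 (Rab24). Capitals mark matches, on either strand, to the interferon-stimulated response element (ISRE, taken as 2 runs of GAAA with any 2 bases between them), TCACGTGA (the core of the lysosomal CLEAR element), GAGGAAGT (a site type of the myeloid factor PU.1) or GGGCGG (a GC box).
Rab32: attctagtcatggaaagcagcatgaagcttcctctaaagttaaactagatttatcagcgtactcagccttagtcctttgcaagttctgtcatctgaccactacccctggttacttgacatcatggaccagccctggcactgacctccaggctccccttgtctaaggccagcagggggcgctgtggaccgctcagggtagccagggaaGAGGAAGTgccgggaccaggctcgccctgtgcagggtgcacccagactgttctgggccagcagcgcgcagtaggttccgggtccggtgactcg
Rab39: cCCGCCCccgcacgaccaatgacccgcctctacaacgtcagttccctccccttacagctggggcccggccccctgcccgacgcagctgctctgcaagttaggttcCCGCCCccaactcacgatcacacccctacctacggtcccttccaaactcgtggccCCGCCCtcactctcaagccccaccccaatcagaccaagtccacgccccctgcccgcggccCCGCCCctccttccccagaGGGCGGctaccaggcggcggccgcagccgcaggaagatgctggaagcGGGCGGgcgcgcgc
Rab3d: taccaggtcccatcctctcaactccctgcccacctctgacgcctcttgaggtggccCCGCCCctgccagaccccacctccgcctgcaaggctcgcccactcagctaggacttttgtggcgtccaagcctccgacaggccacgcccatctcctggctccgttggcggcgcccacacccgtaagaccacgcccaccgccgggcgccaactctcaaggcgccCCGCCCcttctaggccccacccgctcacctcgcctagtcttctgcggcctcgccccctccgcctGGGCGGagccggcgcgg
Rab24: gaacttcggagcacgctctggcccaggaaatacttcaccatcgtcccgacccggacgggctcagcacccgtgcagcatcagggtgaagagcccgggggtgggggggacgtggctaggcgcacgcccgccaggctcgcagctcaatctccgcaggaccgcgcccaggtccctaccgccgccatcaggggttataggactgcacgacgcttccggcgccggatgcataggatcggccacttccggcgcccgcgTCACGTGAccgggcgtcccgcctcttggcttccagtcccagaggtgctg

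In these windows Rab32 had 1 match to GAGGAAGT, Rab39 had 6 matches to GGGCGG, Rab3d had 3 matches to GGGCGG and Rab24 had 1 match to TCACGTGA. None of the 4 windows held the ISRE. The motifs were chosen after the changes and these windows had been seen. Of the 63 names, 53 matched a gene with promoter windows, 71 windows in all. The ISRE was in 1.41% of these windows, against 3.44% of all 32851 RefSeq windows. The corresponding shares were 4.23% against 0.974% for TCACGTGA (3 windows, those of Rab24, Rab21 and Rab5a), 2.82% against 3.20% for GAGGAAGT and 69.0% against 35.7% for GGGCGG. By class, GGGCGG was in 72.2% of endosomal, 68.2% of secretory and 50% of lysosomal windows. These shares count windows, of which a gene can have several. They were not matched for base composition and were not tested. A match is a run of letters, and binding was not measured.

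Among secretory Rabs 1 of 15 tested rose, 0 fell and 14 did not pass, beside 4.83% called among all genes. The median log2 change was 0.02, and 9 of the 15 members lay above 0, against 50.3% of all genes. The gene that rose was Rab3d, a Rab of regulated exocytosis found on secretory granules. It read 9.90, 9.97, 10.04 and 9.84 after Ypel5 siRNA, against 9.72, 9.64, 9.67 and 9.68 after scrambled siRNA, and the groups did not overlap. The rise was 1.20-fold (log2 0.26, SE 0.054, limma adjusted p = 0.0353). The call held when Ypel5 siRNA replicate 4 was left out (adjusted p = 0.0370) and was lost when any other array was (adjusted p of up to 0.0922).

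Rab33b, a Golgi Rab that binds the autophagy protein ATG16L1, had the largest negative value among the tested secretory Rabs and did not pass. It read 8.55, 8.73, 8.26 and 8.64 after Ypel5 siRNA and 8.94, 8.90, 8.91 and 9.02 after scrambled siRNA. All Ypel5 siRNA arrays lay below all scrambled arrays after normalization. Before it they did not, with intensities of 651.3, 604.1, 450.2 and 629.9 against 613.3, 609.0, 556.1 and 650.3. The change was log2 -0.40 (SE 0.096, 95% interval -0.62 to -0.18, limma adjusted p = 0.0558). Without background correction it was log2 -0.28 and passed (adjusted p = 0.0136).

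Rab10, which carries the receptor TLR4 to the macrophage surface, read 8.74, 8.71, 8.53 and 8.77 after Ypel5 siRNA and 8.40, 8.31, 8.63 and 8.47 after scrambled siRNA. The groups overlapped through scrambled replicate 3, and the change of log2 0.24 (SE 0.083, limma adjusted p = 0.149) did not pass. Rab27a, which docks secretory granules at the plasma membrane, read 8.84, 8.62, 8.99 and 8.62 against 8.80, 8.81, 8.79 and 8.62 (Ypel5 siRNA and scrambled arrays). Its change of log2 0.01 had a 95% interval of -0.21 to 0.23 and an adjusted p of 0.970.

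The remaining secretory Rabs did not pass. Among the Rabs of transport between endoplasmic reticulum and Golgi, Rab1b was at log2 -0.14 (adjusted p = 0.266), Rab1 at 0.10 and Rab2a at 0.02. Rab1 is a synonym of 2 genes in the RefSeq table, Rab1a being 1 of them, and keeps the name in the file. Rab6 (now Rab6a), the Rab of retrograde Golgi transport, was at log2 -0.07, and its 3 detected probes lay between log2 -0.075 and -0.065. The exocytic Rab8a and Rab8b were at log2 0.03 and 0.09, Rab18, a Rab of lipid droplets and the endoplasmic reticulum, at -0.02, and Rab3a, the synaptic vesicle Rab, at -0.02. The dim Rab43, of endoplasmic reticulum to Golgi transport, Rab37, of granule exocytosis, and Rab13, of tight junctions, were at log2 0.39 (SE 0.25), 0.26 (SE 0.15) and -0.20 (SE 0.16), with standard errors above those of the other tested secretory Rabs. Rab19, which was not tested, was detected on 3 of 4 Ypel5 siRNA arrays and on 0 of 4 scrambled arrays. Its readings were 5.55, 5.97, 5.69 and 5.65 against 5.25, 5.32, 5.18 and 4.91. A second Rab19 probe was detected on 0 arrays. Without the detection filter the limma adjusted p of the first was 0.0855. The Ypel5 siRNA mean was also set against the dimmest detected signal on each scrambled array, or against the probe itself where brighter. That calculation gave 1.10-fold higher after Ypel5 siRNA, without allowance for the spread between arrays.

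Of the 12 endosomal Rabs tested, 0 passed limma in either direction. Of the 12, 1 was higher at an unadjusted p under 0.05, against 902 of all 8257 genes. The following values are those of the endosomal class. The median log2 change was 0.04, and 8 of the 12 members lay above 0, against 50.3% of all genes. The gene with the smallest p was Rab14, which works between the Golgi and early endosomes and delays phagosome maturation. It read 12.63, 12.58, 12.74 and 12.61 after Ypel5 siRNA and 12.44, 12.49, 12.40 and 12.43 after scrambled siRNA, without overlap. The change was log2 0.20 (SE 0.052, 95% interval 0.08 to 0.32, limma adjusted p = 0.0656), and it passed without background correction (log2 0.20, adjusted p = 0.0278).

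The recycling Rab Rab11b also showed no overlap, with 13.14, 13.16, 13.24 and 13.12 after Ypel5 siRNA and 13.05, 13.10, 13.10 and 13.10 after scrambled siRNA. The difference was small, at log2 0.08 (SE 0.046, limma adjusted p = 0.401). Its relative Rab11a read 7.19, 7.80, 7.28 and 7.21 after Ypel5 siRNA and 7.22, 7.31, 7.31 and 7.42 after scrambled siRNA. Ypel5 siRNA replicate 2 alone stood high, and the change was log2 0.06 (adjusted p = 0.853). Rab4b, a Rab of fast recycling, read 8.33, 8.34, 8.47 and 8.56 against 8.69, 8.36, 8.55 and 8.59 (Ypel5 siRNA and scrambled arrays) and was at log2 -0.12 (adjusted p = 0.460).

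The transcripts of the early endosome Rabs Rab5a, Rab5b and Rab5c were all within log2 0.12 of 0. Rab5a read 10.74, 10.82, 10.62 and 10.79 after Ypel5 siRNA and 10.80, 10.73, 10.61 and 10.70 after scrambled siRNA, with overlapping groups. Its change of log2 0.03 had a 95% interval of -0.11 to 0.17 (limma adjusted p = 0.812). Rab5c was at log2 0.02 (SE 0.063), and the dim Rab5b at log2 -0.11 with an SE of 0.34. The other tested endosomal Rabs were Rab22a, which sorts endocytosed cargo, at log2 0.13, Rab4a, of fast recycling, at 0.10, Rab35, of recycling to the plasma membrane, at 0.07, Rab31, of Golgi to endosome transport, at -0.03 and Rab21, of integrin traffic, at -0.07, and each had overlapping groups. Rab20, a phagosomal Rab that interferon-gamma induces in macrophages, was detected on 1 Ypel5 siRNA array and 2 scrambled arrays and was not tested.

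**Figure D3:**
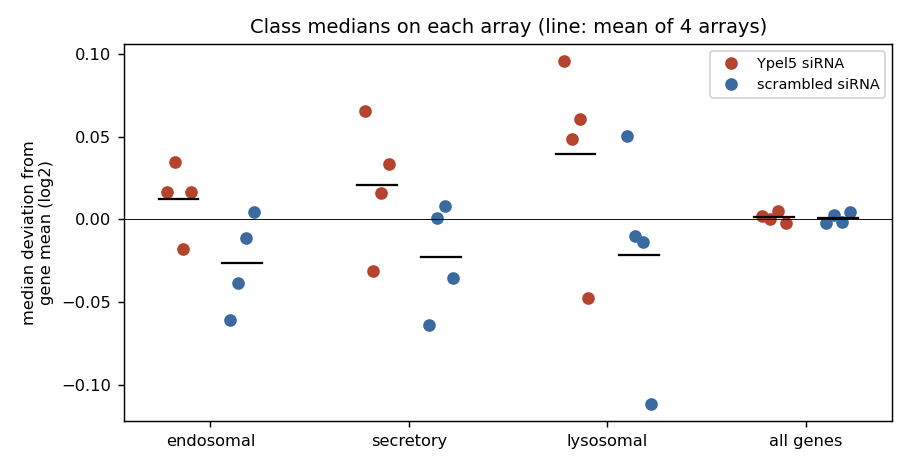
Median, over the tested members of each class, of the deviation of normalized log2 intensity from each gene's mean over the 8 arrays (vertical axis), with 1 point per array and a line at the mean of 4 arrays. In the 3 Rab classes the points of the Ypel5 siRNA and scrambled arrays overlap.

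Set side by side, the median log2 changes were 0.04 for endosomal, 0.02 for secretory and 0.01 for lysosomal Rabs. This order changed with single arrays. Without Ypel5 siRNA replicate 2 the medians were 0.0078, 0.0595 and 0.004 (endosomal, secretory and lysosomal). The lysosomal median was below 0 without Ypel5 siRNA replicate 1 (-0.0262) and without scrambled replicate 4 (-0.0404). On single arrays the class medians overlapped between the groups. For lysosomal Rabs the median deviation from the gene mean ran between -0.047 and 0.096 on Ypel5 siRNA arrays and between -0.11 and 0.050 on scrambled arrays. For endosomal Rabs it ran between -0.018 and 0.035 on Ypel5 siRNA arrays and between -0.061 and 0.0043 on scrambled arrays. For secretory Rabs the ranges were -0.031 to 0.066 and -0.064 to 0.0083 (Ypel5 siRNA and scrambled arrays). In the 8 genes for binding and regulatory proteins the ranges were 0.0005 to 0.11 on Ypel5 siRNA arrays and -0.060 to 0.0001 on scrambled arrays. They did not overlap but nearly touched. Of these 8 genes 0 passed limma, 6 lay above 0 and 2 below, against 50.3% above 0 among all genes. Over all genes the ranges were -0.002 to 0.005 and -0.0024 to 0.0047 (Ypel5 siRNA and scrambled arrays).

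The 3 tested Rabs of other roles did not pass, with 0 at an unadjusted p under 0.05 by limma. Rab23, a regulator of Hedgehog signalling, read 6.06, 5.53, 5.56 and 6.16 after Ypel5 siRNA and 5.91, 6.14, 6.09 and 6.45 after scrambled siRNA, and was at log2 -0.32 (SE 0.17, limma adjusted p = 0.345). Rab40c, a Rab with a SOCS box that recruits a ubiquitin ligase, read 10.71, 10.83, 10.73 and 10.75 against 10.77, 10.57, 10.67 and 10.74 (log2 0.07). Rab28, a Rab of cilia, read 12.79, 12.67, 12.76 and 12.84 against 12.67, 12.73, 12.77 and 12.73 (log2 0.04). In both genes the Ypel5 siRNA and scrambled arrays, given in that order, overlapped.

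All 8 genes for binding and regulatory proteins that the name pattern caught were tested, and 0 passed limma. Of the 8, 2 were higher at an unadjusted p under 0.05, against 902 of all 8257 genes. Those 2 were Rab11fip5 and Rab11fip4, adaptors that link Rab11 to motors and membranes. Rab11fip5 read 9.30, 9.39, 9.36 and 9.34 after Ypel5 siRNA and 9.23, 9.14, 9.25 and 9.11 after scrambled siRNA, without overlap (log2 0.17, SE 0.051, limma adjusted p = 0.102). Rab11fip4 read 6.81, 6.40, 6.43 and 6.19 against 5.87, 6.21, 6.14 and 5.98 (Ypel5 siRNA and scrambled arrays), with 1 crossing pair of arrays (log2 0.41, SE 0.13, adjusted p = 0.123). Rab11fip2, another adaptor of Rab11, went the other way, with 4.98, 5.30, 5.75 and 5.60 after Ypel5 siRNA and 5.94, 5.59, 5.63 and 6.20 after scrambled siRNA (log2 -0.43, SE 0.19, adjusted p = 0.242), and was detected on 5 of the 8 arrays. Rab3ip and Rab3il1, exchange factors of Rab8 and Rab3, were at log2 0.22 and 0.09, the Rab3gap1 and Rab3gap2 subunits of 1 regulatory complex at 0.09 and 0.04, and Rab11fip3 at -0.08.

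Different probes of a gene were compared where more than 1 was detected, which was the case for 14 members. In 9 of them all detected probes had changes of 1 sign, and in 5 (Rab28, Rab34, Rab3il1, Rab8a and Rab8b) they had both signs, none of these with an unadjusted p under 0.05. The second Rab10 probe was at log2 0.12 and the second Rab1b probe at log2 -0.26. Rab32, Rab39, Rab3d, Rab14 and Rab33b each have a single probe, so their changes have no second reading. Several Rabs have close relatives, and whether a probe also reads one was not checked.

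**Figure D4:**
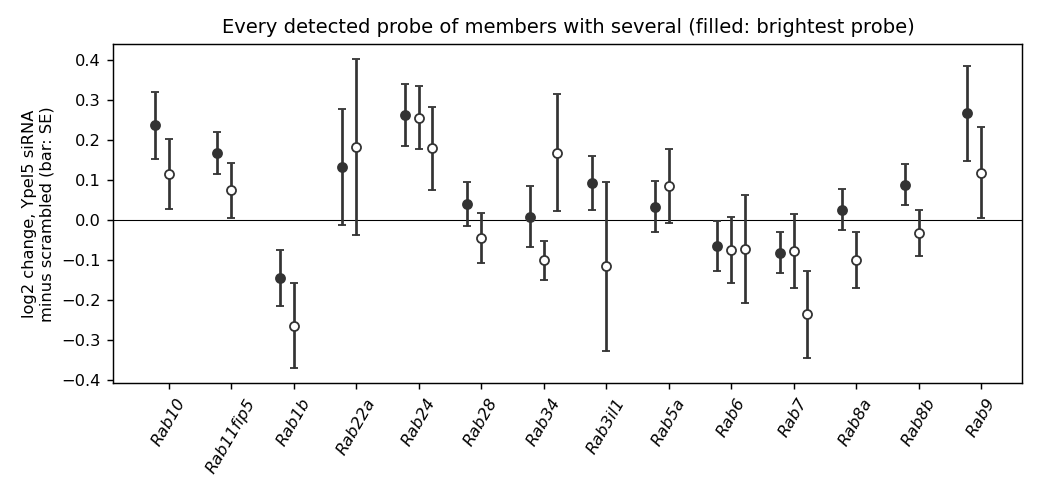
Log2 change, Ypel5 siRNA minus scrambled, with its standard error, for every detected probe of the 14 members with more than 1. Filled points are the brightest probe, which represents the gene. The 3 probes of Rab24, Rab6 and Rab7 each lie on 1 side of 0, those of Rab34 on both.

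Genes that load, switch and use Rabs were read from a list of 140 names that are not members, of which 117 were on the array and 92 were tested. One of the 92, Rgp1, was detected in the Ypel5 siRNA group alone and is described apart. Of the other 91, 4 rose, 1 fell and 86 did not pass (5.49% called, against 4.83% of all genes). The share of all genes includes genes detected in 1 group alone. With Rgp1 included as well, 6.52% of the 92 passed. The median log2 change over the 92 was 0.01. Among 28 tested genes for GTPase-activating proteins 3 rose and 1 fell (14.3% called, against 4.83% of all genes, a difference that was not tested). Tbc1d2, which inactivates Rab7, rose to 7.98 ± 0.048 in the Ypel5 siRNA group, against 7.40 ± 0.12 in the scrambled group (log2 intensity, SD, n = 4 each), a change of log2 0.58 (SE 0.068, limma adjusted p = 0.00452), and it passed in all 19 alternatives. Tbc1d13, which inactivates Rab35, fell to 9.52 ± 0.092 in the Ypel5 siRNA group, against 9.89 ± 0.057 in the scrambled group (log2 -0.37, adjusted p = 0.0148). It passed in 16 of 19 alternatives, including each with a single array left out. It did not pass after scaling to a common median (log2 -0.30, adjusted p = 0.140) or without both replicate 1 arrays (log2 -0.39, adjusted p = 0.0824).

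The calls of the other 2 genes for GTPase-activating proteins depended on single arrays. Evi5, which binds Rab11, rose by log2 0.31 (limma adjusted p = 0.0379) and Tbc1d9b by log2 0.53 (adjusted p = 0.0466). Evi5 passed when replicate 1 of either group was left out (adjusted p = 0.0419 for Ypel5 siRNA and 0.0412 for scrambled), and leaving out any other array ended the call (adjusted p of up to 0.0942). Tbc1d9b passed when scrambled replicate 4 was left out (adjusted p = 0.0359), and leaving out any other array ended the call (adjusted p of up to 0.1105). Among the 24 tested exchange factors that are not members, Rgp1, a subunit of the exchange factor of Rab6, had the smallest p. Its probe was detected on 4 of 4 Ypel5 siRNA and 0 of 4 scrambled arrays, so it entered the test only through the group where it is high, and its adjusted p of 0.0221 is not counted as a call. Without the detection filter the adjusted p was 0.0734. The calculation used for Rab19 gave 1.17-fold higher after Ypel5 siRNA, again without allowance for the spread between arrays. Without background correction the change of Rgp1 was log2 0.09 (limma adjusted p = 0.254). Rgp1 passed in 4 of the 13 alternatives in which it was tested. Dennd1c, an exchange factor of the Rab35 family, was at log2 0.40 (adjusted p = 0.0560). Among 34 tested effectors that are not members 2.94% were called, against 4.83% of all genes. The called one was Appl2, an adaptor on Rab5 endosomes, which rose by log2 0.35 (limma adjusted p = 0.0371). Its call held without Ypel5 siRNA replicate 2 (adjusted p = 0.0218) and ended without any other array (adjusted p of up to 0.0892). Vps41, a subunit of the tether that Rab7 engages, was at log2 -0.27 (adjusted p = 0.0859). Of 6 tested genes for prenylation, escort and membrane recycling of Rabs, 0 passed limma. Of the 6, 1 was lower at an unadjusted p under 0.05, against 871 of all 8257 genes. That gene was Rabif (log2 -0.18, adjusted p = 0.219), and Gdi2, which extracts Rabs from membranes, was at log2 0.09 (adjusted p = 0.722).

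**Figure D5:**
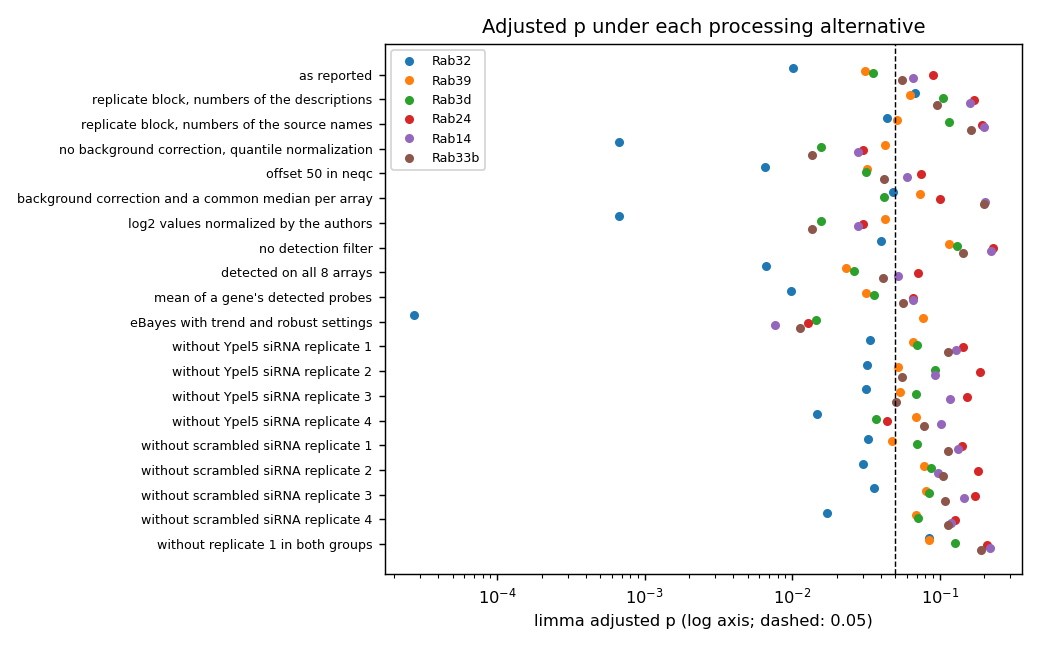
Limma adjusted p (horizontal log axis, dashed line at 0.05) of 6 members as reported and under each of 19 processing alternatives. Rab32 lies left of the line in 17 of 19 alternatives, Rab39 in 6 and Rab3d in 8.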

How the data were processed

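Expression was measured on 8 Illumina bead arrays of RAW264.7 cells, 4 per siRNA group. The source names give the groups, and the descriptions give the replicate numbers used here. The source names carry replicate numbers too, and these conflict with the descriptions. In the source names, scrambled replicates 1 to 4 are numbered 1, 2, 1 and 1. Ypel5 siRNA replicates 1 to 4 are numbered 1, 2, 2 and 2 there. One deposited table gives, per the file headers, each probe's linear intensity with its detection p-value on every array. The deposited normalized table holds log2 values made by the authors, and the series' value table repeats them in all 8 columns. Per the submitters' processing notes RMA was used, with no version given in the sources used here.

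Background correction and quantile normalization used neqc (limma 3.58.1, R 4.3.3, offset 16). Each gene name was represented by its probe with the highest mean intensity. Genes detected (p under 0.05) on at least 4 of 8 arrays were fitted with lmFit and eBayes without a replicate block, with two-sided Benjamini-Hochberg adjusted p over all genes tested. The fit was tested on simulated data with independent noise and planted changes larger than those of the called members. That does not test calls of their size. Single values were compared by exact permutation.

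The members, classes and lists were chosen with earlier results of these data known. Array values are given for members past the threshold, for the 3 with the smallest p in each class and for Rab5a, Rab7, Rab11a, Rab27a and Rab32. Of the pathway lists, called genes and the 2 with the smallest p per list are named. Rab19 was added after its values were seen. Alternatives changed the block, background correction, normalization, filter, probe rule, variance model and arrays. Leaving out both replicate 1 arrays was added after the data had been seen, because their detection p-values take 101 levels, against 749 to 762 on the others. Symbols are those of the file, with promoter windows from RefSeq (GRCm38.p6) matched by symbol.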

Additional observations from a re-analysis of the deposited data

Results flagged for a closer look

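Within single groups of 4 arrays, 6 of 94 sets of member values held 1 array far from the other 3 by Dixon's ratio, and chance gives about 1 in 20. Values are normalized log2 intensities. Among Ypel5 siRNA arrays, replicate 1 read 10.75 for Rab3gap2 where the others read 10.91 to 10.93, and 8.60 for Rab12 where the others read 8.34 to 8.36. Replicate 2 read 7.80 for Rab11a where the others read 7.19 to 7.28. Among scrambled arrays, replicate 1 read 7.82 for Rab39, above the others at 7.71 to 7.72, and 13.05 for Rab11b, below the others at 13.10. Replicate 4 read 8.62 for Rab27a where the others read 8.79 to 8.81.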

How the results depend on the processing

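Of 19 alternatives, the called members Rab32 passed in 17, Rab3d in 8 and Rab39 in 6, each with 1 sign throughout, and 3 further members, Rab14, Rab24 and Rab33b, passed in at least 3. Of the 47 tested members 31 kept 1 sign wherever an alternative could be computed for them and 16 did not. With the replicate numbers of the descriptions as a block, 111 genes and 0 Rab members passed, and Rab32 had an adjusted p of 0.0680. At an unadjusted p under 0.05 that block gave 1719 of 8257 genes and 11 of 47 members. With the source name numbers as a block, 143 genes and 1 member passed, the endosomal median was log2 0.0099, and Tbc1d13 had an adjusted p of 0.0659. Deviations of same-numbered arrays correlated at 0.042, -0.0018, -0.00094 and 0.18, and in 1 of the 4 pairs the best match was the same number, so the numbers were not taken as pairs. Quantile normalization without background correction and the authors' log2 values, which are nearly the same values, each gave 681 genes and 6 members. Trend and robust settings gave 784 and 5, and no detection filter gave 145 and 1. After scaling to a common median 228 genes passed, 87.3% of them higher in place of 59.6%, the secretory median was log2 0.0625 and the median of all genes was log2 0.0367. Leaving out 1 array gave 186 to 273 genes and 1 to 3 members, with medians of log2 0.0078 to 0.0828 (endosomal), 0.001 to 0.0595 (secretory) and -0.0404 to 0.0532 (lysosomal). Without replicate 1 in both groups 69 genes and 0 members passed, with a secretory median of log2 -0.0056. At an unadjusted p under 0.05 the remaining arrays gave 1391 of 8050 genes and 11 of 45 members. The causes of these differences were not tested. Signal near background limits the dim members, such as Rab5b and Rab43.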
